A study of Mus musculus with 13 samples.

Results

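RNA from transposable elements and piRNA loci was compared between B16 cells that lack both Tdg and Trp53 (Tdg Trp53 DKO, 2 libraries) and wild-type B16 cells (WT, 2 libraries). B16 is a mouse melanoma line. The comparison used 4 of the 13 libraries of the study. Its members were all rows with signal in the B16 table: 858 elements had coverage in these 4 libraries, of 880 with coverage in any of the 8 B16 libraries. Of the 880, 528 were repeat consensus sequences and 352 were entries of piRNA loci. B16 cells with a Tdg KO or a Trp53 KO alone (2 libraries each) were used to estimate the spread and were read side by side with the DKO. All cells grew in DMEM with fetal bovine serum. The labels do not say whether a genotype is 1 clone or a pool, nor whether the libraries of a genotype came from separate cultures, so the p-values measure only the spread between these libraries. The table holds repeats and piRNA loci only, so the loss of Tdg and Trp53 transcripts and the melanocyte identity of the cells were not analysed here.

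Transposable elements are DNA sequences that copied themselves through the genome. SINEs such as the mouse B1 and B2 families are short, do not code for proteins and are transcribed by RNA polymerase III, and they also lie inside many introns and untranslated regions of genes. LINE-1 (L1) elements and the endogenous retroviruses with long terminal repeats (LTRs), such as intracisternal A particles (IAP), carry their own coding sequences, while satellites are tandem arrays, of which the minor satellite marks the mouse centromere and the major satellite the chromatin beside it. TDG is a DNA glycosylase that removes thymine from G:T mismatches and oxidised forms of 5-methylcytosine during active DNA demethylation, and p53, encoded by Trp53, is a stress-activated transcription factor. In mammals, piRNA loci are known mainly from germ cells, and many of the loci catalogued in mouse overlap ordinary genes.

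The values were mean read coverage per base of each element, sense and antisense to it, and had not been scaled to library size. Coverage of repeats other than the 7SL consensus summed to 46967 and 29867 in the DKO libraries, against 25657 and 24142 in the WT libraries. The 7SL consensus alone took 95.4% and 85.3% of all coverage in DKO, against 94.3% and 89.6% in WT. In DKO 1374 and 1229 element strands were detected, against 1012 and 1130 in WT. The number of reads per library is unknown, so a library-wide gain and a deeper library cannot be told apart. In such bulk samples, fewer cells and less RNA per cell cannot be told apart either. For this reason each result is given as deposited and, where it matters, after 3 scalings. These were median-ratio scaling, in which a library is divided by the median of its ratios to the mean over libraries, centring on the library median, and quantile normalization. Differences are of log2(coverage + 0.1), which understates changes between low values above 0. For elements at 0 in WT, the size of the difference depends on the added 0.1 and is not a measured fold. The median log2 difference (DKO minus WT) over all 1246 element strands tested was 1.09 as deposited. It was 0.29 after median-ratio scaling, -0.28 after centring and -0.14 after quantile normalization. As deposited, it was 1.27 with 0.01 added in place of 0.1, and 0.65 with 1 added. With elements at 0 in WT or in DKO set to the bounds explained below, or to 0 where there was no bound, it was 0.78. The DKO libraries were also less alike than the WT libraries, with a median absolute log2 difference between the replicates of 0.81 in DKO and 0.52 in WT.

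Of the 1246 element strands, 51 rose in DKO (4.09%) and 1 fell (0.0803%) at an adjusted p under 0.05 by limma. Of the rises, 42 were at repeats and 9 at piRNA loci, and 31 were antisense and 20 sense. B1 SINEs gave 12 of them, LTRs of the ERV2 class 13, IAP elements 4, and the other repeats came in ones and pairs. The 1 fall was the minor satellite in sense. After median-ratio scaling 11 rose (0.883%) and 3 fell (0.241%). All 51 rises kept a positive difference under the 3 other scalings, but 3 rises and the minor satellite fall were the only calls that passed under all 4: B1_Mur1 in sense, and SINEB1_MU and SINEB2_MU in antisense. For the 30 rises at 0 in both WT libraries, median-ratio scaling could not turn the sign. The calls lay close to the threshold: the weakest had an adjusted p of 0.0488 by limma, and 35 further element strands had one between 0.05 and 0.06. Leaving out 1 library of WT, Tdg KO or Trp53 KO gave 0 rises, or 1 without WT 2 that is not among the 51, and 0 falls. Leaving out DKO 1 gave 71 rises and 5 falls and leaving out DKO 2 gave 262 and 6, where the lone DKO library was assumed to vary like the other groups. In a fit of the 4 DKO and WT libraries alone, 0 rose and 0 fell, with 285 higher and 5 lower at an unadjusted p under 0.05. Among the 428 element strands with a mean coverage of 10 or more in DKO or in WT, 18 rose, of which 12 were B1, and 1 fell.

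Many rises were of RNA seen only in small amounts. In 30 of the 51, coverage was 0 in both WT libraries, and in 21 it was 0 in all 6 libraries without the DKO genotype. These 21 were kept for the test only through their DKO coverage, so a rise was the only direction open to them. Only the DKO pair gave their fits a spread of its own, and they count among the 51 and in the 4.09%. For the 30, a fold can only be bounded against 3 fragments per library, taken here as 300 bases each. 10 of the 30 lay above that floor in DKO, with bounds of at least 1.45-fold to at least 5.00-fold, and 20 lay at or under it and are given without a fold. The other 21 rises had coverage in WT. The direction was shared well beyond the calls. Both DKO libraries lay above both WT libraries for 682 of the 1246 element strands (54.7%) and below both for 74 (5.94%), so a group in which about that share lies above WT does not stand out. The 1246 include 156 at 0 in both WT libraries, for which DKO could not lie below WT.

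**Figure D1:**
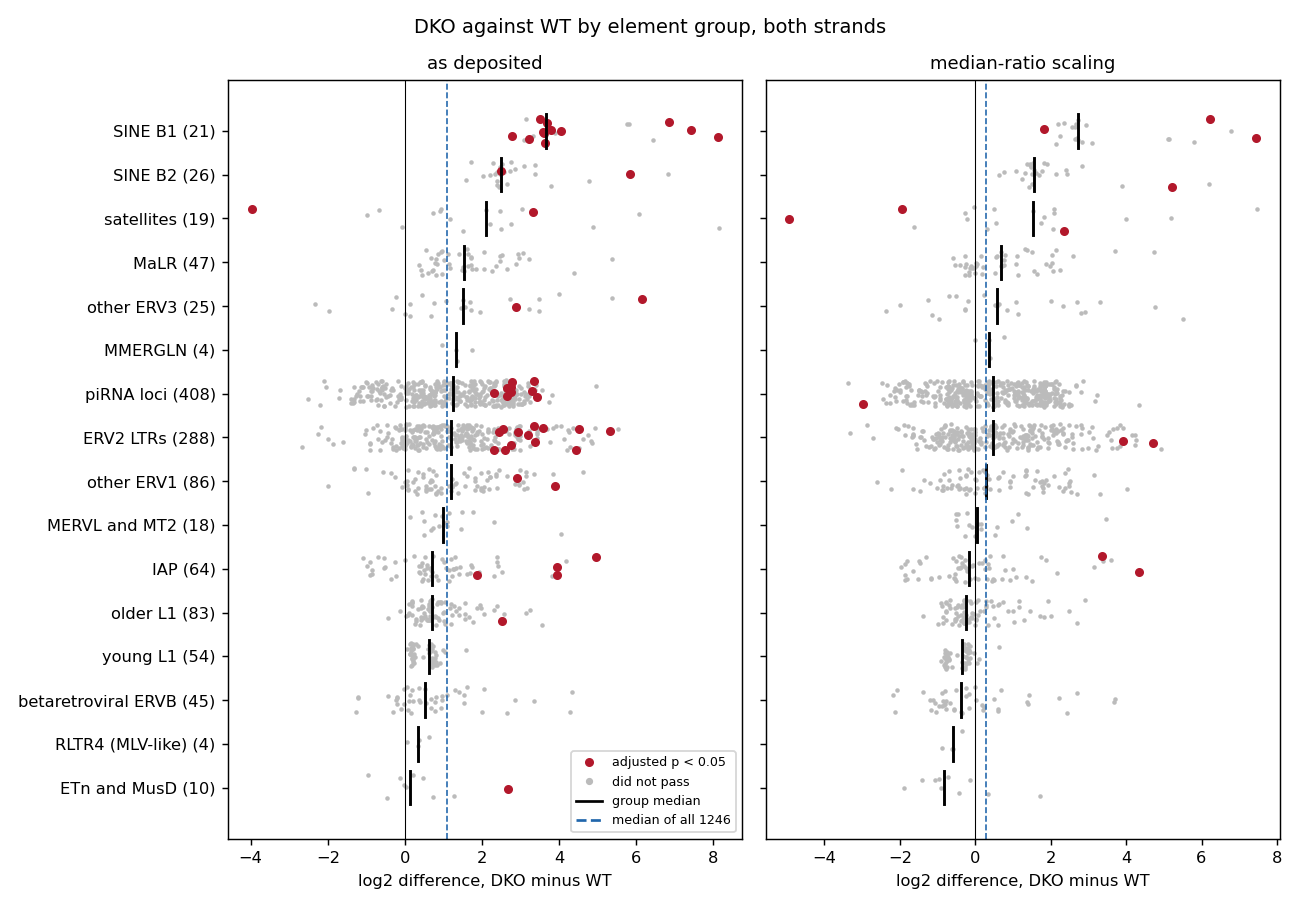
Log2 difference (DKO minus WT) of every tested element strand in 16 groups, as deposited (left) and after median-ratio scaling (right), with the number of element strands in brackets. Red points passed an adjusted p of 0.05, black lines are group medians and the blue dashed line is the median of all 1246. B1 and B2 lie to the right of the blue line in both panels, while the medians of IAP, older L1, young L1, betaretroviral, RLTR4 and ETn elements change sign between them.

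B1 SINEs stood furthest above WT among the larger groups. All 21 B1 element strands (10 sense, 11 antisense) lay above both WT libraries in both DKO libraries, and above all 6 libraries of the other genotypes, which 592 of all element strands did (47.5%). Of the 21, 12 rose, 4 of 10 in sense and 8 of 11 in antisense (background 3.10% and 5.17%), and 9 did not pass. The median log2 difference was 3.67, and 3.59 with elements at 0 in WT set to their bounds. It was 2.71 after median-ratio scaling, 2.29 after centring and 2.80 after quantile normalization, and 3 B1 strands rose after median-ratio scaling. Related consensus sequences can hold the same reads, so these 21 are not separate measurements.

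B1_Mus1, the best-covered B1 consensus, is one of the sequences named for the genus Mus. In antisense it had a coverage of 1061 and 241 in DKO, against 34.1 and 45.0 in WT, a log2 difference of 3.69 (SE 0.64, adjusted p = 0.0395 by limma). Its sense strand had 384 and 188 in DKO, against 22.6 and 32.1 in WT, and did not pass (3.32, SE 0.73, adjusted p = 0.0555). On both strands both DKO libraries lay above both WT libraries. The general B1 consensus had 925 and 180 in antisense in DKO, against 22.5 and 26.9 in WT (log2 difference 4.05, adjusted p = 0.0395). B1_Mm in sense, chosen after its values were seen, had 219 and 141 in DKO, against 18.0 and 36.0 in WT (2.78, SE 0.41, adjusted p = 0.0387), and it passed again after median-ratio scaling (1.83, adjusted p = 0.0378). B1_Rn in sense, likewise chosen after its values were seen, had 320 and 158 in DKO, against 21.1 and 27.9 in WT (3.21, adjusted p = 0.0395). In each of these sequences DKO 1 was the higher of the DKO libraries and DKO 2 still lay above both WT libraries.

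Some B1 sequences had little or no coverage outside DKO. B1_Mur1 in sense had 8.27 and 15.7 in DKO and 0 in both WT libraries, at least 1.98-fold higher (adjusted p = 0.0183 by limma, the smallest of the comparison). It was 0 in both Tdg KO and both Trp53 KO libraries too, so only the DKO pair gave its fit a spread of its own. These values stand for only 4.11 and 7.78 fragments. B1_Mur2 in sense had 13.1 and 22.3 in DKO and 0 in both WT libraries, at least 2.93-fold higher (adjusted p = 0.0395), with 0 in both Tdg KO libraries and 1.61 and 0 in Trp53 KO. SINEB1_MU in antisense had 115 and 34.9 in DKO, against 0 and 0.421 in WT, a log2 difference of 8.12 (SE 0.94, adjusted p = 0.0286), the largest among the rises. By the same count its WT values stand for 0 and 0.187 fragments, under the floor, so no fold is given. In the single knockouts it had 0 and 0 in Tdg KO and 2.99 and 2.96 in Trp53 KO. The antisense strand of B1_Mur1 did not pass (161 and 37.5 in DKO, 10.5 and 2.52 in WT, adjusted p = 0.186).

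The order of the B1 strands rested on 1 library. Summed over the group, antisense B1 coverage was 5880 and 1390 in DKO, against 196 and 240 in WT, 16.7 times the mean of WT. Sense coverage was 1598 and 931 in DKO, against 101 and 165 in WT, or 9.50 times. Without DKO 1 the order turned, at 6.37 times in antisense and 6.998 times in sense, and without DKO 2 the ratios were 27.0 in antisense and 12.01 in sense. The median log2 difference without DKO 1 was likewise lower in antisense (2.65) than in sense (3.23). With 2 libraries against 2, the exact two-sided permutation p is 0.33 for both, the smallest this design allows. Over elements whose WT mean lay above the floor, ratios of the group means ran from 6.67 to 12.9 in 6 sense elements and from 14.4 to 22.4 in 9 antisense elements. DKO 1 exceeded DKO 2 for all 11 antisense elements, by a median of 4.19 times, and for 7 of 10 in sense. Without DKO 1 the median B1 log2 difference over both strands was 2.80, and without DKO 2 it was 4.70, with 9 and 12 B1 strands passing. Without 1 library of WT, Tdg KO or Trp53 KO, 0 B1 strands passed, or 1 without WT 2, at medians of 3.51 to 3.77. Sense made up 21.4% and 40.1% of B1 coverage in DKO, against 34.0% and 40.7% in WT.

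**Figure D2:**
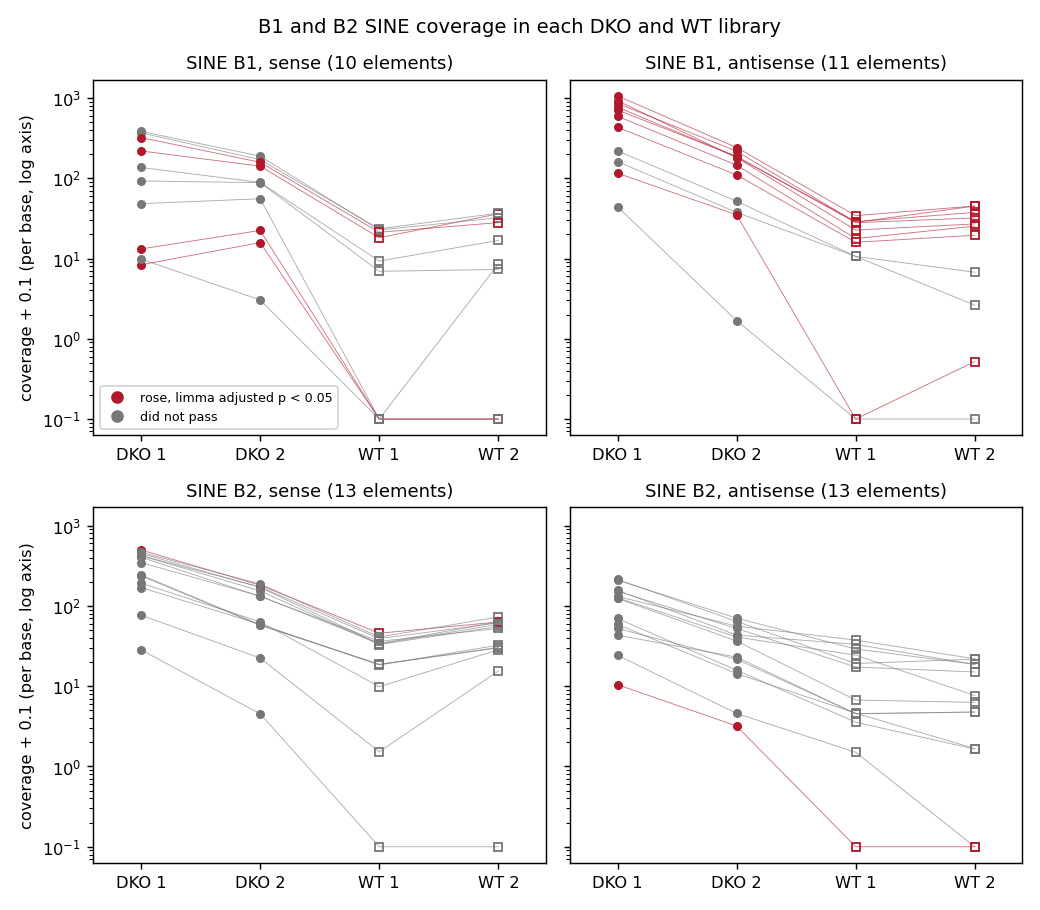
Coverage plus 0.1 (log axis) of each tested B1 element (top) and B2 element (bottom), sense (left) and antisense (right), in the 2 DKO libraries (filled circles) and the 2 WT libraries (open squares). Thin lines join the values of 1 element, and red marks those that rose. Every B1 and B2 element lies higher in both DKO libraries than in both WT libraries, and in antisense DKO 1 lies above DKO 2 throughout.

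B2 SINEs, which derive from a tRNA, moved the same way with fewer calls. All 26 B2 element strands lay above both WT libraries in both DKO libraries (background 54.7%), and 23 lay above all 6 other libraries (background 47.5%). Only 2 rose (background 4.09%) and 24 did not pass. B2_Rat2 in sense, the best-covered, had 498 and 181 in DKO, against 45.6 and 63.0 in WT (log2 difference 2.48, SE 0.48, adjusted p = 0.0469 by limma). SINEB2_MU in antisense had 10.4 and 3.09 in DKO and 0 in both WT libraries (adjusted p = 0.0286), with DKO at or under the floor. The length of this element was read from few values and can be too short, which would raise its floor. B2_Rat4, the best-covered in antisense, had 214 and 64.1 in DKO, against 19.1 and 21.6 in WT, and did not pass (2.52, adjusted p = 0.104). The smallest B2 difference was the antisense strand of the general B2 consensus, with 131 and 56.0 in DKO, against 37.4 and 21.8 in WT (1.58, adjusted p = 0.125).

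The median log2 difference of B2 was 2.50 as deposited, 1.55 after median-ratio scaling, 1.13 after centring and 1.53 after quantile normalization. Summed sense coverage was 3958 and 1393 in DKO, against 329 and 563 in WT, and antisense coverage was 1372 and 445 in DKO, against 185 and 122 in WT (exact permutation p = 0.33 for each). DKO 1 exceeded DKO 2 for all 26 strands, and without DKO 1 the B2 median was 1.80. Unlike B1, B2 coverage was mostly sense in both genotypes, at 74.3% and 75.8% in DKO and 64.0% and 82.2% in WT. Of the older SINEs, B3 in antisense rose (1.76 and 1.08 in DKO, 0 in both WT libraries, adjusted p = 0.035), at or under the floor.

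PB1 and 7SL share ancestry with B1 and gave no call. PB1 in sense had 1157 and 16.6 in DKO, against 21.2 and 15.2 in WT, so that the DKO libraries lay on either side of a WT library (adjusted p = 0.297). The 7SL consensus derives from the RNA of the signal recognition particle. Its sense log2 difference was 0.33 (SE 1.22, adjusted p = 0.861) and turned to -0.63 after median-ratio scaling and -1.04 after centring. DKO 1, which held the high PB1 value, also held the higher share of 7SL and most of the antisense B1 coverage, and the part of these in the B1 result was not tested beyond the values without DKO 1 given above.

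The centromeric satellites gave 1 fall and 1 rise. Minor satellite (SATMIN) sense coverage fell to 12.3 and 24.3 in DKO, against 196 and 382 in WT, a log2 difference of -3.98 (SE 0.60, adjusted p = 0.0387 by limma). It passed under all 4 scalings and was -4.93 after median-ratio scaling (adjusted p = 0.0294). With 1 library left out in turn it ran from -4.46 to -3.49, and it passed only without DKO 2 (adjusted p = 0.0316). Without DKO 1 the adjusted p was 0.118, so it is not among the 5 falls of that setting, and without each of the 6 other libraries it was 0.0654 to 0.144. Both DKO libraries lay far below all others, since the single knockouts had 323 and 217 in Tdg KO and 343 and 132 in Trp53 KO. Minor satellite antisense coverage ran the other way, with 194 and 154 in DKO, against 20.4 and 21.9 in WT, and did not pass (3.03, SE 0.87, adjusted p = 0.0732). This strand and the other satellites below, apart from GSAT_MM in antisense, were picked with their values known.

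Added over both strands, minor satellite coverage was 206 and 179 in DKO, against 217 and 404 in WT. Sense made up 5.97% and 13.6% of it in DKO, against 90.6% and 94.6% in WT. In the single knockouts the sense share was 97.5% and 82.4% in Tdg KO and 98.8% and 91.0% in Trp53 KO, so the DKO libraries were the 2 of 8 in which antisense prevailed. In the test of the strand ratio over 730 elements, the minor satellite had a log2 difference of -7.00 and did not pass (adjusted p = 0.164). That test called 0 elements (0.00%), against 47 higher and 49 lower at an unadjusted p under 0.05, and its smallest adjusted p was 0.111. With 0.01 added in place of 0.1 it called 18.

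Major satellite (GSAT_MM) coverage was higher on both strands. In antisense it rose, with 585 and 260 in DKO, against 32.4 and 47.5 in WT (log2 difference 3.31, SE 0.42, adjusted p = 0.0348 by limma, and 2.36 with adjusted p = 0.0378 after median-ratio scaling). In sense it had 186 and 223 in DKO, against 0 and 5.09 in WT, and did not pass (8.14, SE 2.27, adjusted p = 0.0701). Over both strands coverage was 771 and 483 in DKO, against 32.4 and 52.6 in WT. Sense made up 24.2% and 46.1% of it in DKO, against 0% and 9.67% in WT. The 2 centromeric satellites thus both held more antisense coverage in DKO than in any other B16 library, while in sense the minor satellite was lower and the major satellite higher in both DKO libraries.

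Across all 19 satellite element strands, 1 rose (background 4.09%), 1 fell (background 0.0803%) and 17 did not pass, with a median of 2.11 (1.54 after median-ratio scaling). With elements at 0 set to their bounds the median was 1.17. MMSAT4 in sense had 27.2 and 11.6 in DKO, against 1.64 and 5.81 in WT (adjusted p = 0.0717). ZP3AR in antisense had 23.3 and 18.2 in DKO, against 27.9 and 59.4 in WT, a log2 difference of -0.98 that did not pass as deposited (adjusted p = 0.185) and passed under the 3 scalings (-1.93, adjusted p = 0.0378 after median-ratio scaling). Satellite behaviour was therefore mixed, and the group median describes neither SATMIN nor ZP3AR.

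**Figure D3:**
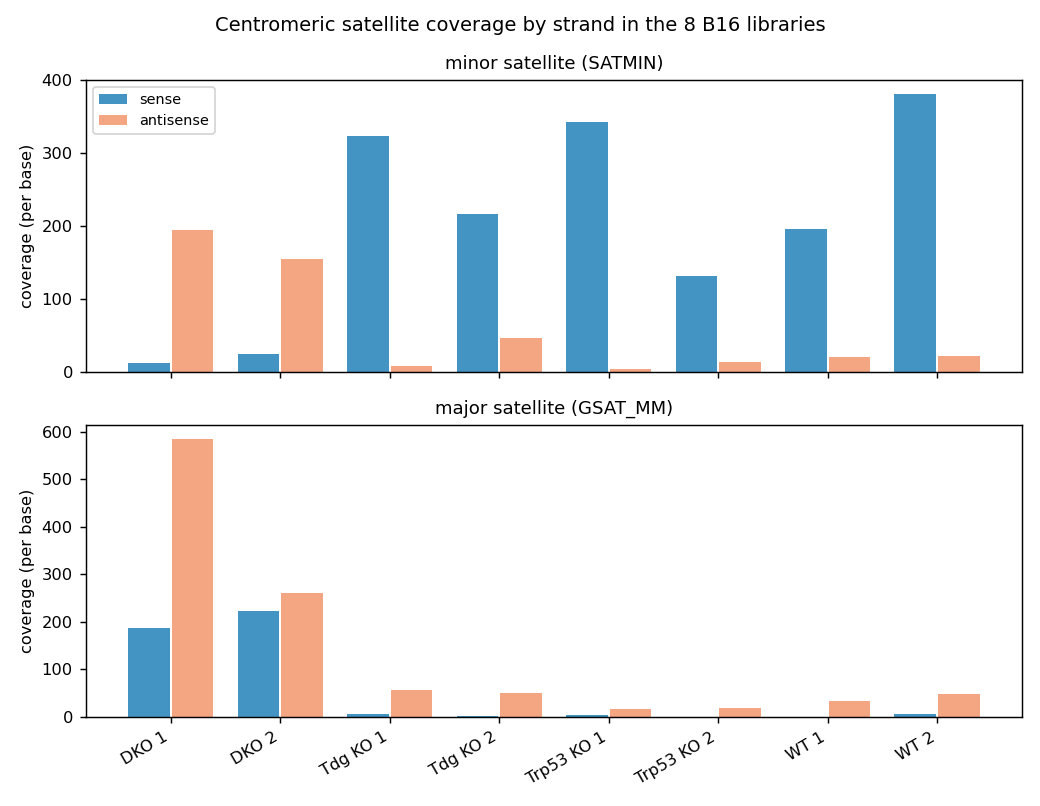
Coverage per base of the minor satellite (top) and the major satellite (bottom) on the sense strand (blue) and the antisense strand (orange) in each of the 8 B16 libraries. The DKO libraries hold minor satellite sense coverage of 12.3 and 24.3, under every other library, and major satellite coverage above every other library on both strands.

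Endogenous retroviruses of the IAP group, which are transcribed in many mouse tumour lines, gave rises in antisense only. Of 64 IAP element strands, 4 rose (background 4.09%) and 60 did not pass. All 4 were among the 32 antisense strands (background 5.17% in antisense). The median was 0.72 as deposited and turned negative after median-ratio scaling (-0.18), centring (-0.66) and quantile normalization (-0.31). IAPLTR2b in antisense, chosen after its values were seen because it is the only one of the 4 with coverage in WT, had 30.4 and 23.1 in DKO, against 7.24 and 7.07 in WT (log2 difference 1.88, SE 0.29, adjusted p = 0.0387 by limma). IAP1-MM_LTR in antisense had 2.51 and 3.63 in DKO and 0 in the 6 other libraries (adjusted p = 0.0205), at or under the floor. IAPEY5_LTR in antisense had 1.05 and 1.997 in DKO and 0 in both WT libraries (adjusted p = 0.0395), likewise at or under it. The fourth, IAPLTR4_LTR, lay at or under the floor as well.

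The best-covered IAP sequence was lower in DKO as deposited. IAPEZI in sense, the internal sequence with the coding part, had 2448 and 1805 in DKO, against 5205 and 2942 in WT, with no overlap, and did not pass (log2 difference -0.90, SE 0.42, adjusted p = 0.211). Its values were 3005 and 2450 in Tdg KO and 6322 and 4179 in Trp53 KO. Its antisense strand had 51.5 and 65.0 in DKO, against 48.9 and 41.2 in WT (0.37, adjusted p = 0.348), and was lower in DKO after median-ratio scaling (-0.59). Summed IAP sense coverage was 7904 and 5019 in DKO, against 11986 and 6787 in WT (exact permutation p = 0.667), and antisense coverage was 602 and 496 in DKO, against 338 and 364 in WT (exact permutation p = 0.33). Sense accordingly made up 92.9% and 91.0% of IAP coverage in DKO and 97.3% and 94.9% in WT.

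Among other retroviruses of the ERV2 class, 13 of 288 LTR element strands rose (a share close to the background of 4.09%), and all 13 were at 0 in both WT libraries. Only 3 of these lay above the floor. BGLII in sense had 3.21 and 4.81 in DKO and 0 in the 6 other libraries, at least 1.45-fold higher (adjusted p = 0.0205 by limma). RMER17B in sense had 3.24 and 1.48 in DKO and 0 in both WT libraries, at least 2.44-fold higher (adjusted p = 0.0387), and RMER13A1 in sense had 2.07 and 2.05, against 0 in both, at least 1.85-fold higher (adjusted p = 0.0395). The best-covered LTRs of the class did not pass. BGLII_LTR in antisense had 206 and 132 in DKO, against 63.5 and 89.2 in WT (1.13, adjusted p = 0.181), which was -0.24 after centring. RLTR13B3 in sense had 47.9 and 30.9 in DKO, against 27.0 and 44.2 in WT (0.15, adjusted p = 0.772), and was negative under the other scalings (-0.80 after median ratio). The group median was 1.21, close to that of all element strands, and was 0.46, -0.17 and -0.09 under the 3 scalings. Of the 288 strands, 69 were at 0 in both WT libraries. With elements at 0 set to their bounds the group median was 0.53, against 0.78 over all element strands.

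ETn and MusD elements are mobile ERV2 retroviruses. Of 10 element strands, 1 rose (background 4.09%): the LTR RLTRETN_MM in antisense had 28.2 and 30.7 in DKO, against 3.69 and 5.58 in WT (log2 difference 2.67, SE 0.42, 6.35 times the WT mean, adjusted p = 0.0387). The full-length MMETN in sense had 4.84 and 7.99 in DKO, against 14.2 and 10.4 in WT (-0.96, adjusted p = 0.257), and its antisense strand 12.2 and 15.4 in DKO, against 11.6 and 16.8 in WT (-0.02). The body of the element thus gave no call on either strand. Betaretroviral elements had 0 calls among 45 strands as deposited and a median of 0.53 (-0.37 after median-ratio scaling). MMERVK10C, the best-covered, had 28.0 and 11.5 in sense in DKO, against 42.4 and 41.4 in WT (-1.22, adjusted p = 0.147 by limma). This strand passed as a fall after centring (-2.59, adjusted p = 0.0388) and quantile normalization (-2.11, adjusted p = 0.0496). After median-ratio scaling it did not pass (-2.17, adjusted p = 0.0807).

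MMERGLN is a gammaretroviral element of the ERV1 class, and 0 of its 4 element strands passed. All 4 lay above all 6 other libraries in both DKO libraries (background 47.5%), with a median of 1.33. MMERGLN_I in sense had 751 and 1067 in DKO, against 270 and 476 in WT (log2 difference 1.32, SE 0.36, adjusted p = 0.0674 by limma), and 557 and 507 in Tdg KO and 232 and 183 in Trp53 KO. It was 0.36 after median-ratio scaling and -0.05 after centring. MMERGLN_LTR in antisense had 23.7 and 26.0 in DKO, against 6.33 and 14.9 in WT (1.34, adjusted p = 0.340), and -0.03 after centring. DKO 2 was the higher DKO library in 3 of these 4 strands.

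Other ERV1 sequences gave 2 rises among 86 element strands (background 4.09%), both at or under the floor. They were RLTR41A2 in sense, with 0.939 and 2.03 in DKO and 0 in both WT libraries (adjusted p = 0.0387), and RNLTR10A in antisense. RLTR1B_MM in sense had 120 and 89.1 in DKO, against 19.1 and 36.5 in WT (1.97, SE 0.57, adjusted p = 0.0748), while its antisense strand had 110.5 and 103 in DKO, against 64.6 and 92.7 in WT (0.47, negative under the other scalings). RLTR4I_MM, which resembles murine leukaemia virus and is the best-covered ERV1 sequence, had 4487 and 2950 in sense in DKO, against 2976 and 2711 in WT (0.36, adjusted p = 0.554), and -0.60 after median-ratio scaling. VL30 elements are retrovirus-like and non-coding. LTRVL30 in sense had 5.50 and 1.44 in DKO and 0 in both WT libraries, at least 1.53-fold higher (adjusted p = 0.0387 by limma). The internal sequence MMVL30 in sense had 55.2 and 44.3 in DKO, against 37.4 and 36.4 in WT (0.42, adjusted p = 0.387, and -0.53 after median-ratio scaling).

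The ERV3 class holds MERVL, known from the early mouse embryo, and the MaLR families. None of 18 MERVL and MT2 element strands passed, with a median of 0.99 and 0.036 after median-ratio scaling (-0.39 after centring). MT2B2_LTR in sense had 39.5 and 46.4 in DKO, against 22.6 and 31.2 in WT (0.69, adjusted p = 0.278, and -0.27 after median-ratio scaling). None of 47 MaLR element strands passed either, but 34 lay above both WT libraries and 0 below both, against a background of 54.7% and 5.94%. Their median was 1.54, and 0.68, 0.17 and 0.35 under the 3 scalings. With elements at 0 set to their bounds it was 1.11 as deposited. Summed antisense MaLR coverage was 3343 and 1867 in DKO, against 1131 and 1440 in WT, and sense coverage was 1921 and 1335 in DKO, against 783 and 922 in WT (exact permutation p = 0.33 for each). MTAI in antisense, the best-covered, had 385 and 279 in DKO, against 134 and 242 in WT (0.86, adjusted p = 0.184, and -0.09 after median-ratio scaling). Of 25 other ERV3 element strands 2 rose (background 4.09%). RMER15 in sense had 6.53 and 7.43 in DKO and 0 in both WT libraries, at least 4.46-fold higher (adjusted p = 0.0395), and it was present in the single knockouts (0.292 and 3.57 in Tdg KO, 1.04 and 1.05 in Trp53 KO). RLTR19A2 in sense rose at or under the floor.

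Young L1 elements, the class that still holds mobile copies in mice, gave no call. None of 54 element strands passed by limma, and the median was 0.61 and turned to -0.34 after median-ratio scaling, -0.76 after centring and -0.39 after quantile normalization. The strands differed as deposited. In sense, 25 of 27 lay above both WT libraries in both DKO libraries (background 54.2%), with a median of 0.71. In antisense 3 of 27 did (background 55.3%), with a median of 0.20. L1MdF_IV, the best-covered, had 101 and 105 in sense in DKO, against 46.2 and 98.6 in WT (log2 difference 0.61, SE 0.44, adjusted p = 0.354 by limma), and 145 and 210 in antisense in DKO, against 153 and 164 in WT (0.14, adjusted p = 0.730). Both were negative after median-ratio scaling (-0.35 and -0.82). WT 1 was the lower WT library in sense. Without it the median of the group over both strands was 0.13, and without WT 2 it was 1.04. Sense made up 42.2% and 35.0% of young L1 coverage in DKO and 23.0% and 38.7% in WT.

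Older L1 elements gave 1 rise among 83 strands (background 4.09%), with a median of 0.71 (-0.24 after median-ratio scaling). This was L1VL2_5 in antisense, with 0.500 and 0.443 in DKO and 0 in the 6 other libraries (adjusted p = 0.0395), at or under the floor. L1_Mus1_3end, the best-covered, had 130 and 85.8 in sense in DKO, against 47.5 and 78.6 in WT (0.79, adjusted p = 0.250), and -0.17 after median-ratio scaling. The best-covered sequences of the remaining groups did not pass: RatERVL in antisense had 11.3 and 13.2 in DKO, against 6.68 and 7.69 in WT (0.76, adjusted p = 0.181, and -0.19 after median-ratio scaling). DNA transposons gave 0 rises among 4 strands, with URR1 in sense at 14.2 and 4.13 in DKO, against 0.653 and 4.35 in WT. Elements without a clear class gave 2 rises among 28 strands (background 4.09%), RMER1A and RMER1B in sense. Of these, RMER1B had 2.16 and 0.962 in DKO and 0 in the 6 other libraries, at least 1.84-fold higher (adjusted p = 0.0387).

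piRNA loci gave 9 rises among 408 element strands, a share below the background of 4.09%, and 0 falls. The 408 carry 152 locus names, since entries of 1 name can be nested and hold the same fragments, and the rises came from 6 names, 5 of host genes and 1 of a cytoband. The median was 1.25 as deposited, 0.48 after median-ratio scaling, -0.12 after centring and -0.25 after quantile normalization, and 0 loci rose after median-ratio scaling. pi-Zmat3.1 is named for Zmat3, a p53-induced gene for an RNA-binding protein (mm10 chromosome 3, 32334792 to 32366014, minus strand). Its antisense strand had 0.961 and 0.715 in DKO, against 0.0366 and 0.0379 in WT (log2 difference with the added 0.1 2.76, SE 0.54, adjusted p = 0.0469 by limma). The values stand for 24.9 and 18.5 fragments in DKO, against 0.95 and 0.983 in WT, which is under the floor, so no fold is given. It had 0.267 and 0.144 in Tdg KO and 0.0384 and 0.0455 in Trp53 KO.

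pi-Wipf2.2 is named for Wipf2, a gene of actin regulation (chromosome 11, 98863638 to 98905040, plus strand). In antisense it had 10.1 and 5.73 in DKO, against 0.629 and 0.748 in WT (3.29, SE 0.65, adjusted p = 0.0469). The locus 5-qG2-2301.1, named for a band of chromosome 5, had 16.5 and 10.4 in antisense in DKO, against 1.39 and 2.39 in WT (2.78, adjusted p = 0.0447), and its second entry holds the same fragment counts. pi-BC026590.1 in antisense had 1.67 and 0.553 in DKO and 0 in both WT libraries, at least 2.50-fold higher (adjusted p = 0.0447). Its second entry rose with it, at least 5.00-fold higher by the length read for that entry. Lengths read in this way can be too short, which lowers the bound. In each of these loci DKO 1 was the higher library and DKO 2 still stood above all 6 others.

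To complete the list, and with their values known, pi-Elk4.1 in antisense and pi-Gabpb2.1 in sense are added here: both rose. Elk4 encodes an ETS transcription factor (chromosome 1, 132007607 to 132032612, plus strand), and its locus had 12.6 and 8.57 in antisense in DKO, against 2.24 and 1.78 in WT (2.32, adjusted p = 0.0421). In sense the same locus had 83.1 and 71.5 in DKO, against 95.9 and 59.7 in WT, and the genotypes overlapped. Gabpb2 encodes a subunit of the GABP transcription factor (chromosome 3, 95181766 to 95217916, minus strand), and its locus had 6.50 and 5.49 in sense in DKO, against 0.836 and 0.904 in WT (2.65, SE 0.48, adjusted p = 0.0395). The 2 entries of this locus hold the same fragments.

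Neither of the best-covered loci passed as deposited. pi-Rplp1.1 in sense, named for the gene of a ribosomal stalk protein (chromosome 9, 61913284 to 61914542, minus strand), had 4720 and 1158 in DKO, against 2208 and 1522 in WT, which overlap (0.35, adjusted p = 0.713, and -0.61 after median-ratio scaling). The locus 10-qC1-2617.1 in antisense had 256 and 204 in DKO, against 755 and 348 in WT, without overlap (-1.16, SE 0.43, adjusted p = 0.132 by limma). After quantile normalization it passed as a fall (-1.67, adjusted p = 0.0258). It did not pass after median-ratio scaling (-2.12, adjusted p = 0.101) or centring (-2.54, adjusted p = 0.0664). pi-Rab11fip4.1 in sense, chosen after its values were seen, had 5.05 and 3.99 in DKO, against 24.1 and 14.6 in WT (-2.04, adjusted p = 0.0518), and passed after median-ratio scaling (-2.97, adjusted p = 0.0378). Rab11fip4 (chromosome 11, 79591212 to 79698023, plus strand) encodes an effector of RAB11 in vesicle transport. Tdg KO had 7.94 and 4.43 at this locus and Trp53 KO 20.0 and 15.6.

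The piRNA loci differed by strand and by kind of locus, which is given here as a description without a test. Its counts are of table entries, not of separate loci. In loci named for a host gene, the 117 sense entries, of 72 names, had a median of 0.087, with 34 above and 33 below both WT libraries (background 54.2% and 7.89%), and 17 below all 6 other libraries (background 3.41% in sense). Their 44 antisense entries, of 34 names, had a median of 1.98, with 34 above and 2 below (background 55.3% and 3.83%), and 5 rose (background 5.17%). Loci named for a cytoband had a median of 1.78 in sense (110 of 126 above both WT libraries, 3 below) and 1.29 in antisense (91 of 121 above, 6 below). They gave 0 rises in sense and 2 in antisense (background 3.10% and 5.17%). Whether the sense strand of a locus is that of its host gene was not checked against the annotation.

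**Figure D4:**
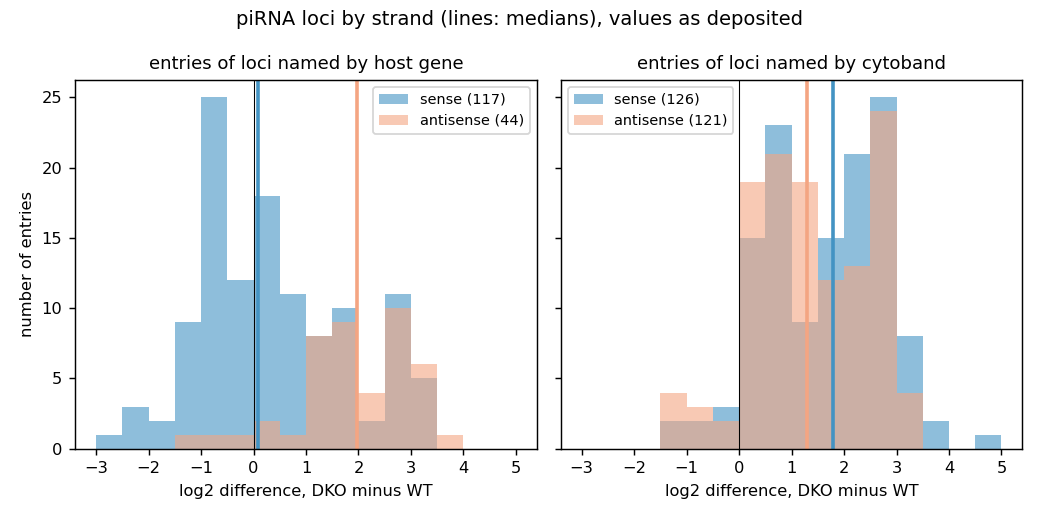
Number of piRNA locus entries by log2 difference (DKO minus WT, values as deposited) for loci named by a host gene (left) and by a cytoband (right), in sense (blue) and antisense (orange), with vertical lines at the medians. Sense entries of host-gene loci centre on 0.087, while the other 3 sets have medians of 1.29 to 1.98.

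Double-stranded RNA needs both strands of a sequence, so the lower of the 2 strands was tested for 495 elements. It rose for 90 (18.2%) and fell for 0 (0.00%; 163 higher and 1 lower at an unadjusted p under 0.05 by limma). The 495 include elements at 0 on the lower strand in both WT libraries, for which a fall was not possible. Some of these, such as B1_Mur1 and BGLII, were kept for the test only through DKO. By group, 9 of 10 B1 elements rose, 55 of 143 entries of piRNA loci, 12 of 110 ERV2 LTRs, 3 of 33 other ERV1, 3 of 31 IAP and 2 of 13 B2. The 55 entries carry 30 of the 89 locus names tested, and 7 of them share 1 name, so they are not separate loci. None of 27 young L1 and none of 7 satellite elements did. After median-ratio scaling 10 rose (2.02%) and 2 fell, and after centring 2 rose and 1 fell. The lower strand is a coverage value, and pairing of the strands into duplexes was not measured.

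The single knockouts share the WT libraries with the DKO, so their differences are set side by side only. By limma 0 element strands passed for Tdg KO or for Trp53 KO against WT, as deposited and under the 3 scalings, with 15 higher and 27 lower in Tdg KO and 16 higher and 65 lower in Trp53 KO at an unadjusted p under 0.05, against 355 higher and 16 lower in DKO. The B1 median was 3.67 in DKO, -0.04 in Tdg KO and -0.42 in Trp53 KO, and the B2 median was 2.50 in DKO, 0.20 in Tdg KO and -0.96 in Trp53 KO. Summed B1 sense coverage was 1598 and 931 in DKO, 116 and 143 in Tdg KO, 35.5 and 67.2 in Trp53 KO and 101 and 165 in WT. Whether the DKO difference departs from the sum of those of the single knockouts was tested as an interaction. It called 0 of 1246 element strands (0.00%), with 427 higher and 10 lower at an unadjusted p under 0.05 and a smallest adjusted p of 0.0662 by limma, so a departure was not shown for any single element strand at this number of libraries. With 0.01 added in place of 0.1 it called 7. The median interaction was 4.63 for B1, 3.50 for B2 and 1.66 over all element strands.

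**Figure D5:**
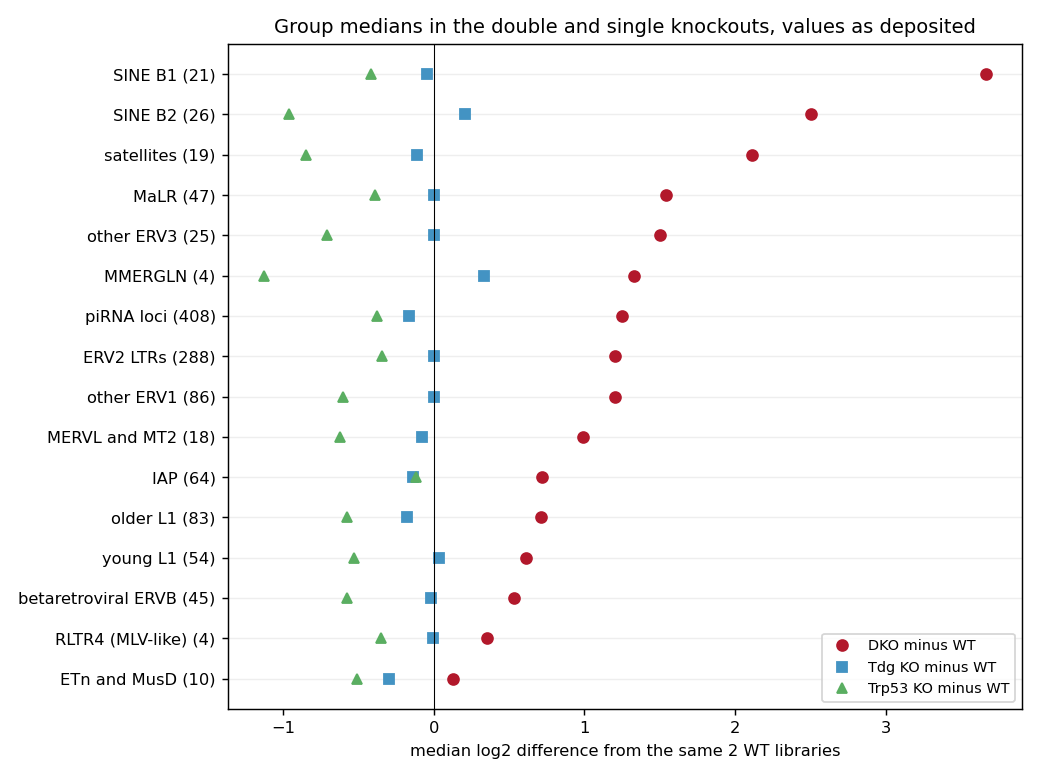
Median log2 difference from the same 2 WT libraries, by element group, for DKO (red circles), Tdg KO (blue squares) and Trp53 KO (green triangles), with values as deposited. The DKO median lies to the right of both single knockouts in each of the 16 groups, from 0.13 for ETn and MusD to 3.67 for B1.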

How the data were processed

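Per the labels' protocols, TRIzol RNA went through removal of ribosomal RNA before strand-specific library preparation. HISAT2, DESeq2 and mm10 are named in the submitters' processing notes, without versions or roles. The deposited values are a signal, by name the piPipes mean signal, taken here as coverage per base of each element. Of the 2035 rows, 885 held signal and 5 exact duplicates were dropped. For 605 of 609 elements with 6 or more distinct values, all values were whole multiples of 1 step (to 1.5e-07 of a step or 3e-09 of the value), so the authors' coverage was not scaled to depth, and depth is unknown. The minus sign of antisense values was dropped.

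Element strands with a mean of at least 0.1 over the 8 B16 libraries were kept. log2(coverage + 0.1) was fitted in R 4.3.3 by limma 3.58.1, using eBayes with trend, over all 4 B16 genotypes (4 residual degrees of freedom), with two-sided contrasts and Benjamini-Hochberg adjustment over all element strands at 0.05. Element lengths behind the floor of 3 fragments were read from the step, which can understate them and so raise the floor. Strand ratio, lower strand and interaction were fitted likewise, and sums were compared by exact permutation. Groups follow the element names. Named elements were the 12 largest rises and falls at repeats and the 6 largest at piRNA loci among calls without overlap, calls under all 4 scalings, and in each group the best-covered element of each strand and the called one with the largest difference. The members, lists and rules were chosen with earlier results of these data known. The alternatives tried are given in the closing section. Host gene positions are from GENCODE M21 (GRCm38, mm10), and BC026590 was not matched there.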

Additional observations from a re-analysis of the deposited data

How the results depend on the processing

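All 51 rises kept a positive log2 difference under every alternative that tested them. In all 51, both DKO libraries lay above both WT libraries, so alternatives without a rescaling could not turn the sign. Nor could median-ratio scaling for the 30 at 0 in both WT libraries. Counts of rises moved. The fit of the DKO and WT libraries alone gave 0 rises, 0 falls, 0 in each of B1, B2, IAP, ERV2 LTRs and piRNA loci, and 3 for the lower strand. Median-ratio scaling gave 11 rises and 3 falls (B1 3, B2 1, IAP 2, ERV2 LTRs 2, piRNA loci 0, lower strand 10 and 2), and the ratio of summed antisense coverage fell under 1 for IAP (0.797) and ERV2 LTRs (0.884). Centring gave 3 and 4 (B1 2, B2 1, IAP 0, ERV2 LTRs 0, piRNA loci 0, lower strand 2 and 1), and quantile normalization 13 and 14 (IAP 1, ERV2 LTRs 1, piRNA loci 0, lower strand 3 and 2). Adding 0.01 gave 1 for B2, 26 for the lower strand, 18 for the strand ratio and 7 for the interaction, and adding 1 gave 2 falls, 4 for B2, 8 for ERV2 LTRs and 28 for piRNA loci. Robust eBayes gave 26 rises (B2 1, ERV2 LTRs 2, piRNA loci 0), repeats alone 26 (ERV2 LTRs 2, lower strand 12), and a minimum mean of 1 gave 14 (B2 0, IAP 1, ERV2 LTRs 0, piRNA loci 0, interaction 1). Without a filter B2 had 1, the strand ratio 3 and the lower strand 35. Scaling by the piRNA loci of host genes in sense, chosen after seeing the data, gave 90 and 2 (B2 5, piRNA loci 34). The causes were not tested.

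The libraries share replicate numbers across genotypes, but the correlations of their deviations were -0.013 to 0.177, so the numbers were not taken to pair them. A fit with the replicate number as a block gave 0 rises, 0 falls, 0 in B1, B2, IAP, ERV2 LTRs and piRNA loci, and 3 for the lower strand.

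Median-ratio scaling without DKO 1, chosen after seeing the data, gave 53 rises and 3 falls (B1 5, ERV2 LTRs 20, piRNA loci 4, interaction 61), and without DKO 2 it gave 125 and 52 (B2 5, ERV2 LTRs 30, piRNA loci 45, interaction 116). Leaving out 1 library at a time with values as deposited gave 0 to 262 rises and 0 to 6 falls. For B1 the range was 0 to 12 (0 to 1 without a library of WT, Tdg KO or Trp53 KO). The ranges were 0 to 8 for B2, 0 to 9 for IAP, 0 to 31 for ERV2 LTRs and 0 to 157 for piRNA loci. For the lower strand they were 2 to 117 rises (2 to 35 where it moved) and 0 to 1 falls. For the strand ratio the range was 0 to 28 (17 and 28 without a DKO library), and for the interaction 0 to 304. Ratios of sums crossed 1 for piRNA loci in antisense (0.670 to 1.18, and 1.04 without the best-covered locus), piRNA loci in sense (0.601 to 1.37) and satellites in sense (0.993 without DKO 1 to 3.42 without DKO 2). Log2 differences that changed sign were L1MdF_IV antisense (-0.13 to 0.40), L1_Mus1_3end antisense (-0.056 to 0.41), MMETN antisense (-0.29 to 0.24), 7SL antisense (-2.93 to 2.72) and sense (-0.96 to 1.61), RLTR13B antisense (-0.087 to 0.89), RLTR13B3 sense (-0.20 to 0.51), RLTR35_MM sense (-0.84 to 0.84, and 0.0084 with 1 added), RLTR4I_MM antisense (-0.16 to 0.29) and pi-Rplp1.1 sense (-0.66 to 1.36).

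No named element that had passed changed sign under a scaling. Those that had not passed and did are given as median ratio, centred and quantile values: IAPEZI antisense -0.59, -1.01, -0.63, L1_Mus1_3end antisense -0.78, -1.20, -0.48 and sense -0.17, -0.59, -0.13, L1MdF_IV antisense -0.82, -1.24, -0.51 and sense -0.35, -0.76, -0.38, MMVL30 antisense -0.18, -0.61, -0.028 and sense -0.53, -0.95, -0.49, MT2B2_LTR antisense -0.47, -0.89, -0.48 and sense -0.27, -0.69, -0.20, MTAI sense -0.40, -0.82, -0.071, RatERVL antisense -0.19, -0.61, -0.16, RLTR13B antisense -0.55, -0.97, -0.46, RLTR13B3 sense -0.80, -1.22, -0.79, RLTR1B_MM antisense -0.49, -0.91, -0.45 and RLTR4I_MM antisense -0.89, -1.31, -0.83. In the first pair of these scalings only, MTAI antisense had -0.092 and -0.51, 7SL sense -0.63 and -1.04, pi-Rplp1.1 sense -0.61 and -1.02 and RLTR4I_MM sense -0.60 and -1.02. Under centring alone BGLII_LTR antisense had -0.24, LTRIS sense -0.12, MMERGLN_I sense -0.053 and MMERGLN_LTR antisense -0.030.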

Other observations

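IMPB_01, listed with the satellites, had a sense coverage of 832 and 1.31 in DKO, 222 and 0.468 in Tdg KO, 2.70 and 0.117 in Trp53 KO and 0.470 and 0.352 in WT. In 2 libraries of different genotypes it thus lay far above the other 6. The log2 difference of DKO from WT was 6.08 and did not pass (adjusted p = 0.298 by limma), and it was 1.48 without DKO 1. In antisense it had 1.77 and 0 in DKO and 0 in both WT libraries. The element was chosen after its values were seen. Antisense coverage of 7SL also differed between replicates, with 422 and 8.30 in DKO, 5.43 and 5.81 in Tdg KO, 24.9 and 83.9 in Trp53 KO and 247 and 16.4 in WT.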
